A study of Mus musculus with 8 samples.

Results

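The transcripts of 7 genes of cholesterol supply were followed in the developing mouse testis. Hmgcs1, Fdft1, Sqle, Lss, Cyp51 and Dhcr7 encode enzymes of cholesterol synthesis, and Scarb1 encodes a receptor that takes up cholesterol from lipoproteins. They were picked by gene symbol for their place in this pathway, with earlier results of these data known. All 7 were found among the 23983 genes of the expression table.

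The study from which the libraries come sought promoters and chromosomal sites that become active in the haploid phase of spermatogenesis, to express transgenes from there. Total RNA was made from pieces of testis of wild-type C57BL/6J mice at day (d) 12, 16 and 24 after birth and from adults, and was sequenced in 1 strand-specific library per stage. The age of the adults and the number of animals behind each library are not given in the sources used here. The first wave of spermatogenesis runs in step after birth, so that an older juvenile testis holds later germ cells, while the adult testis holds all of them.

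Cells build cholesterol from acetyl-CoA. The mevalonate arm of the pathway yields farnesyl diphosphate, a pair of these molecules is joined to squalene, squalene is oxidised and closed into the ring of lanosterol, and lanosterol is trimmed to cholesterol. In the testis, Leydig cells use cholesterol for testosterone, Sertoli cells take up lipids from residual bodies and dying germ cells, and germ cells accumulate sterol intermediates of the pathway.

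Levels are given as FPKM (fragments per kilobase of transcript, by the study's definition relative to the mapped fragments of the library); being per length, levels of different genes can be compared. The values depart from that definition, as the recovered divisor was 12521600 fragments at d12 and 8915310 in the adult, where 8909120 and 12051400 fragments were recovered on genes, and they lay near the scale of the median of ratios (factors of 0.981 to 1.02). The value of 1 fragment on a transcript of 1 kb was 0.0799 FPKM at d12 and 0.0800 at d16, then 0.0455 at d24 and 0.112 in the adult, as recovered from the low values of the table. Counted on the shortest transcript of each gene, the 7 genes rested on 29 fragments (Dhcr7 in the adult) to 8456 (Fdft1 at d24), and longer transcripts would give more. The 95% intervals below, exact Poisson for levels and Clopper-Pearson for ratios, cover counting error only. With 1 library per stage the spread between animals was not measured, and no difference between stages was tested.

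Hmgcs1, at the head of the pathway, encodes the cytosolic synthase that makes HMG-CoA, an early intermediate of the mevalonate arm. Its level was 61.5 FPKM at d12 (59.2 to 63.8), 47.3 at d16 (45.3 to 49.4), 36.1 at d24 (34.8 to 37.5) and 31.4 in the adult (29.5 to 33.4). As deposited, the level was highest at d12 and lower at each later stage, with every step beyond counting error, whereas against Gapdh d16 was above d12 and d24 above d16. The level at d16 was 1.30-fold lower than at d12 (1.23 to 1.38), that at d24 was 1.31-fold lower than at d16 (1.24 to 1.39), and the adult level was 1.96-fold lower than that of d12 (1.82 to 2.11).

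Fdft1, which encodes squalene synthase, the enzyme that commits farnesyl diphosphate to sterols, spanned the widest range of the 7 genes as deposited, 10.2-fold. It stood at 19.2 FPKM at d12 (17.8 to 20.6), 17.9 at d16 (16.5 to 19.3), 130.2 at d24 (127.4 to 133.0) and 181.8 in the adult (176.7 to 187.0). As deposited, the juvenile libraries of d12 and d16 were both low and lay within each other's counting error, with a ratio of 0.932 (0.838 to 1.04), while d24 and the adult were both high. The d16 to d12 ratio was 0.834 at the same upper quartile and 1.51 against Gapdh. The step from d16 to d24 was 7.28-fold (6.72 to 7.89) and that from d24 to the adult 1.40-fold (1.35 to 1.45). The adult level was 9.48-fold that of d12 (8.76 to 10.3).

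Sqle encodes squalene epoxidase, which adds the oxygen from which the ring closure starts. Its level was 9.24 FPKM at d12 (8.25 to 10.3), 8.79 at d16 (7.83 to 9.84), 25.7 at d24 (24.4 to 27.004) and 28.2 in the adult (26.1 to 30.4). As for Fdft1, d12 and d16 formed a low pair that counting error did not separate as deposited (ratio 0.951, but 1.54 against Gapdh), and d24 and the adult a high pair. The d24 level was 2.92-fold that of d16 (2.58 to 3.32), and the adult level 1.098-fold that of d24 (1.00 to 1.20) and 3.05-fold that of d12 (2.67 to 3.50). The adult to d24 ratio turned to 0.787 at the same FPKM sum and 0.984 at the same upper quartile.

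Lss, the gene of lanosterol synthase, acts directly after Sqle, but as deposited it was lower at each stage after d16, where Sqle was higher. It was at 5.79 FPKM at d12 (5.27 to 6.35), 4.82 at d16 (4.34 to 5.33), 3.59 at d24 (3.29 to 3.93) and 3.00 in the adult (2.56 to 3.48). This was the order of Hmgcs1, with each later stage lower than the stage before it as deposited, d16 and d24 higher than the stage before them against Gapdh, and none of the 3 deposited steps with an interval that held 1. The d24 level was 1.34-fold lower than that of d16 (1.17 to 1.53), and the adult level 1.93-fold lower than that of d12 (1.62 to 2.32).

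Cyp51 encodes lanosterol demethylase, which yields the sterol intermediate FF-MAS, a meiosis-activating sterol, and stood well above its d24 level in the adult. It was at 11.8 FPKM at d12 (10.9 to 12.7), 8.36 at d16 (7.61 to 9.17), 15.7 at d24 (15.0 to 16.6) and 33.6 in the adult (31.9 to 35.5). As deposited, the d16 library was the lowest and the adult library the highest, and all 4 levels differed beyond counting error, whereas against Gapdh the d16 level was 1.15-fold that of d12. The d16 level was 1.41-fold lower than that of d12 (1.25 to 1.59), d24 was 1.88-fold d16 (1.69 to 2.096), the adult was 2.14-fold d24 (1.98 to 2.30), and the adult was 2.86-fold d12 (2.60 to 3.15).

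Dhcr7 encodes 7-dehydrocholesterol reductase, which turns 7-dehydrocholesterol into cholesterol, and was the lowest of the 7 genes in every library. It was at 3.32 FPKM at d12 (2.65 to 4.14), 2.22 at d16 (1.65 to 2.87), 1.503 at d24 (1.16 to 1.92) and 1.67 in the adult (1.11 to 2.38). As deposited, the d12 library was the highest (against Gapdh d16 was 1.08-fold d12), while d24, adult and d16, from lowest to highest, were each within counting error of the next. The adult level was 1.98-fold lower than that of d12, with a wide interval (1.30 to 3.19) that rests on 82 fragments at d12 and 29 in the adult.

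Scarb1 encodes scavenger receptor class B type 1, which takes cholesteryl esters from high-density lipoprotein and is known in the testis from Leydig cells and from Sertoli cells, where it binds phosphatidylserine on dying germ cells. Its level was 37.9 FPKM at d12 (35.7 to 40.3), 28.2 at d16 (26.2 to 30.2), 30.6 at d24 (29.1 to 32.2) and 48.3 in the adult (45.3 to 51.5). As deposited, the range was the narrowest of the 7 genes, at 1.71-fold between the lowest and the highest library. As deposited, the d16 and d24 levels lay within counting error (ratio 1.09, 0.997 to 1.19), but the ratio was 0.708 at the same FPKM sum, 0.796 at the same upper quartile and 2.43 against Gapdh. As deposited, the adult level was 1.58-fold d24 (1.45 to 1.71) and 1.27-fold d12 (1.17 to 1.39).

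**Figure D1:**
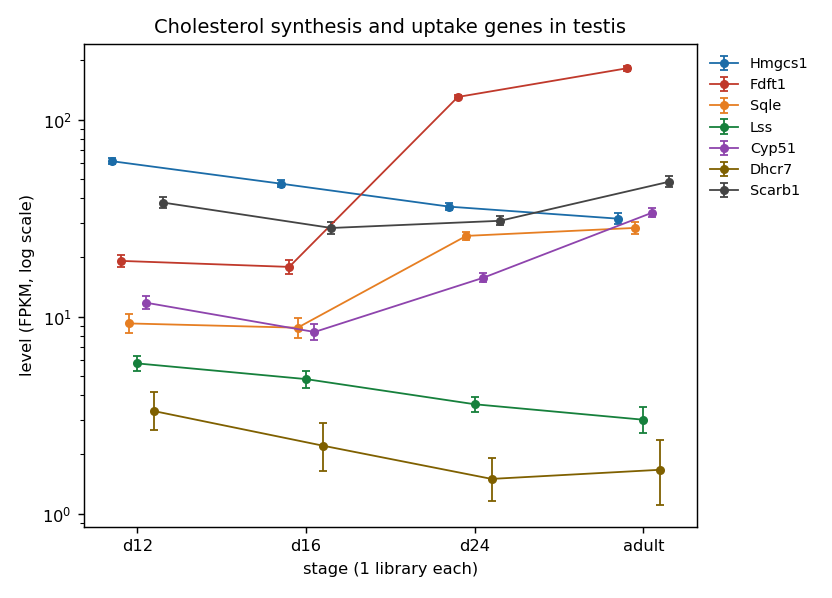
Level of each of the 7 genes in FPKM (log scale) in the libraries of d12, d16, d24 and adult testis, with 1 library per stage and bars for the 95% Poisson interval of the recovered fragments; points are shifted sideways for legibility. Fdft1 goes from 17.9 FPKM at d16 to 130.2 at d24, while Hmgcs1 and Lss are lower at each later stage as deposited, though against Gapdh d16 and d24 are above the stage before.

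The counts of genes past 2-fold were set beside the same counts over the 13901 genes whose mean level reached 1 FPKM, which include all 7. Between d12 and d16, 0 of the 7 genes were at least 2-fold higher (13.4% of all genes) and 0 were at least 2-fold lower (4.18%). Between d16 and d24, 2 of the 7, Fdft1 and Sqle, were at least 2-fold higher (27.7% of all genes) and 0 were lower (9.21%). Between d24 and the adult, 1 of the 7, Cyp51, was higher (11.6%) and 0 were lower (2.69%). Between d12 and the adult, 3 of the 7, Fdft1, Sqle and Cyp51, were higher (35.9%) and 0 were lower (23.6%). From d16 on, the share of the 7 genes at least 2-fold higher was near that among all genes, and these counts do not set the 7 genes apart. Their median log2 change was -0.38 between d12 and d16 (0 for all genes), 0.12 between d16 and d24 (0.13), 0.14 between d24 and the adult (-0.02) and 0.35 between d12 and the adult (0.20). At the same FPKM sum the shares of all genes higher and lower were 12.1% and 6.27% from d12 to d16, 19.5% and 31.0% from d16 to d24, 6.82% and 11.7% from d24 to the adult and 23.3% and 50.2% from d12 to the adult, and the 7 genes then held 1 higher and 3 lower both from d16 to d24 and from d12 to the adult. At the same upper quartile the shares from d16 to d24 were 21.3% and 24.5% and those from d12 to the adult 26.98% and 40.7%. Against Gapdh they were 60.6% and 0.417%, and 71.4% and 2.09%, with 4 of the 7 genes higher in each. Neighbouring comparisons share a library, and those that start from d12 share the d12 library.

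Single genes lay at different places in the distribution of all 13901 ratios. The d24 to d16 ratio of Fdft1 was higher than that of 89.0% of the genes, leaving 1528 genes above it, and that of Sqle was higher than 79.8%. The adult to d24 ratio of Cyp51 was higher than that of 89.5% of the genes. The d24 to d16 ratios of Hmgcs1, Lss and Dhcr7 were higher than those of 30.7%, 29.3% and 24.1% of the genes.

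How the libraries are brought to the same scale bears on these ratios. Against the median gene, whose d24 to d16 ratio was 1.096 as deposited, the ratio was 6.64-fold for Fdft1, 2.67-fold for Sqle, 1.72-fold for Cyp51, 0.992-fold for Scarb1, 0.697-fold for Hmgcs1, 0.680-fold for Lss and 0.619-fold for Dhcr7. From d12 to the adult, where the median gene had a ratio of 1.15, the values were 8.23-fold for Fdft1, 2.65-fold for Sqle, 2.48-fold for Cyp51, 1.11-fold for Scarb1, 0.450-fold for Lss, 0.444-fold for Hmgcs1 and 0.438-fold for Dhcr7. The median log2 change of all genes from d12 to the adult, 0.20 as deposited, became -0.995 with libraries set to the same FPKM sum, -0.56 with the same upper quartile and 1.95 after division by Gapdh, the reference gene of the study's RT-qPCR. Gapdh itself was at 68.9 FPKM at d12 and 42.6 at d16, then 19.1 at d24 and 20.04 in the adult.

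Fdft1 was at least 2-fold higher at d24 than at d16 under each of the 5 scalings tried, with ratios of 4.74 at the same FPKM sum, 5.33 at the same upper quartile, 7.38 by the median of ratios and 16.2 against Gapdh. Its adult to d12 ratio was likewise 4.08, 5.56, 9.65 and 32.6, whereas its adult to d24 ratio became 1.00 at the same FPKM sum. Sqle passed 2-fold from d16 to d24 under each scaling but the same FPKM sum (1.90), and from d12 to the adult it did not pass at the same FPKM sum (1.31) or upper quartile (1.79). The adult to d24 ratio of Cyp51 was 1.53 at the same FPKM sum and 1.92 at the same upper quartile, and its adult to d12 ratio was 1.23 and 1.68. Between d12 and the adult, Hmgcs1, Lss and Dhcr7 were 4.55-fold, 4.49-fold and 4.61-fold lower at the same FPKM sum, but 1.76-fold, 1.78-fold and 1.73-fold higher against Gapdh. The adult to d12 ratio of Scarb1 turned to 0.548 at the same FPKM sum and 0.748 at the same upper quartile, and was 4.38 against Gapdh.

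Ratios between genes within a library do not depend on that scaling. Fdft1 was at 0.312 of the level of Hmgcs1 at d12 (0.287 to 0.339) and 0.378 at d16 (0.346 to 0.413), but at 3.60 times its level at d24 (3.45 to 3.76) and 5.79 times in the adult (5.40 to 6.21). Hmgcs1 was thus the more abundant transcript at d12 and d16 and Fdft1 at d24 and in the adult. Against Lss, Fdft1 went from 3.31 times at d12 (2.94 to 3.73) to 60.6 times in the adult (52.1 to 71.2). Against Fdps, which makes the substrate of squalene synthase, Fdft1 was at 0.455 at d12 (0.408 to 0.506), 0.624 at d16 (0.553 to 0.705), 3.04 at d24 (2.86 to 3.24) and 3.22 in the adult (2.96 to 3.50). Fdps and Fdft1 encode neighbouring steps, and their transcripts changed order between d16 and d24, as did those of Hmgcs1 and Fdft1. Fdft1 was above Lss in each library.

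The ratio of Sqle to Lss was 1.60 at d12 (1.38 to 1.84), 1.82 at d16 (1.56 to 2.13), 7.15 at d24 (6.46 to 7.92) and 9.40 in the adult (7.95 to 11.2). The ratio of Cyp51 to Lss, the step just before it, was 2.03 at d12 and 1.73 at d16, then 4.38 at d24 and 11.2 in the adult (9.57 to 13.3). Cyp51 and Dhcr7, which act early and late on the way from lanosterol to cholesterol, also moved apart. Their ratio was 3.55 at d12 (2.80 to 4.50), 3.77 at d16 (2.86 to 5.13), 10.5 at d24 (8.15 to 13.6) and 20.1 in the adult (14.1 to 30.4). Cyp51 stood at 0.192 of the level of Hmgcs1 at d12 and reached it in the adult, at a ratio of 1.07 (0.986 to 1.17).

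The summed level of the 7 genes was 148.7 FPKM at d12 and 117.5 at d16, then 243.5 at d24 and 328.1 in the adult as deposited, whereas with libraries set to the same FPKM sum the adult (202.1) was below d12 (213.002). Hmgcs1 held 41.3% of this sum at d12 and 40.2% at d16, then 14.8% at d24 and 9.57% in the adult. Fdft1 held 12.9%, 15.2%, 53.5% and 55.4% in the same libraries, so that it alone made up most of the sum from d24 on. The share of Scarb1 was 25.5% at d12 and 23.97% at d16, then 12.6% at d24 and 14.7% in the adult. Cyp51 went from 7.92% at d12 to 10.3% in the adult, and the adult shares of Lss and Dhcr7 were 0.915% and 0.510%.

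**Figure D2:**
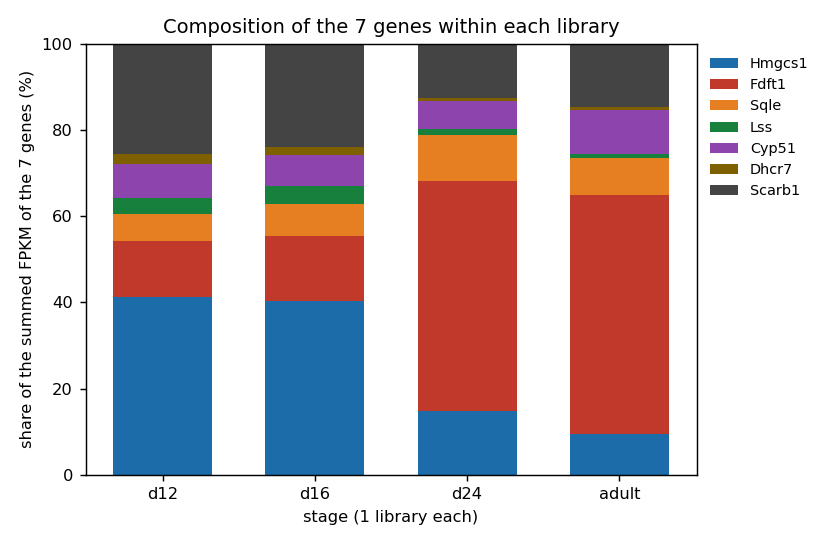
Share of each gene in the summed FPKM of the 7 genes (percent, stacked to 100) in the libraries of d12, d16, d24 and adult testis. The largest share is that of Hmgcs1 at d12 (41.3%) and d16 (40.2%) and that of Fdft1 at d24 (53.5%) and in the adult (55.4%).

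Among the 21 synthesis enzymes listed for the whole pathway, Fdft1 was at rank 6 at d12 and d16 and at rank 1 at d24 and in the adult, where it held 31.5% and 36.7% of their summed FPKM. Hmgcs1 was at rank 1 at d12 and d16, at rank 4 at d24 and at rank 5 in the adult. Cyp51 went from rank 9 at d12 to rank 4 in the adult, Sqle from rank 11 to rank 6, Lss from rank 16 to rank 17 and Dhcr7 from rank 20 to rank 18. The ranks are again taken within each library.

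Of the 15 synthesis enzymes other than the 6 described above, 14 passed the filter on low values. Between d16 and d24, 1 of the 14 was at least 2-fold higher (27.7% of all genes) and 0 were lower (9.21%). That gene was Idi1, which isomerises the building block of the mevalonate arm and went from 16.9 to 38.6 FPKM, 2.29-fold (2.096 to 2.51), but did not pass 2-fold at the same FPKM sum or upper quartile. Between d12 and the adult, 0 of the 14 were at least 2-fold higher (35.9% of all genes) and 3 were lower (23.6%), namely Msmo1 (40.6 to 19.0 FPKM), Hsd17b7 (3.72 to 1.496) and Mvd (3.58 to 1.46). Msmo1 acts soon after Cyp51, and as deposited the transcript of Cyp51 was highest in the adult while that of Msmo1 was highest at d12. Over all 20 synthesis enzymes that passed the filter, the number at least 2-fold higher and lower from d12 to the adult was 3 and 3 as deposited (35.9% and 23.6% of all genes), 1 and 13 at the same FPKM sum (23.3% and 50.2%), and 14 and 0 against Gapdh (71.4% and 2.09%).

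**Figure D3:**
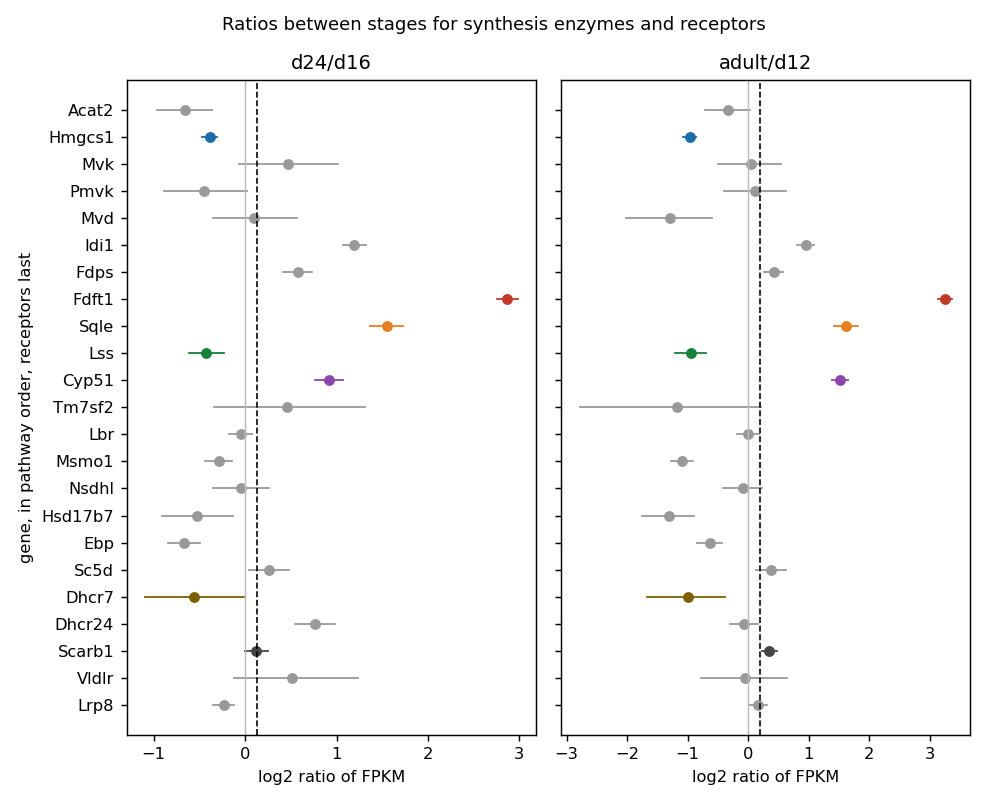
Log2 ratio of FPKM for d24 over d16 (left) and adult over d12 (right) for 20 synthesis enzymes in pathway order and 3 lipoprotein receptors, as deposited, with 95% Clopper-Pearson intervals as lines, the 7 genes in colour and the median of all genes as a dashed line. Fdft1 lies farthest to the right in both panels, at ratios of 7.28 and 9.48; against Gapdh, genes left of 0 such as Hmgcs1 (1.76 for adult over d12) turn to higher.

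Synthesis enzymes are commonly controlled by the SREBP transcription factors, which are held or released by the sterol sensors Scap, Insig1 and Insig2. Of 9 genes listed for this control, 8 passed the filter, and 7 of the 8 were at least 2-fold lower in the adult than at d12 (23.6% of all genes), while 0 were higher (35.9%). The count of 7 also held at the same FPKM sum (50.2% of all genes lower) and upper quartile (40.7%), but against Gapdh it was 0 (2.09%) and 1 of the 8 was at least 2-fold higher (71.4%). Srebf2, the main factor for cholesterol genes, was at 7.43 FPKM at d12 and 3.62 at d16, then 3.34 at d24 and 2.18 in the adult, and Insig1 at 16.4, 8.67, 6.58 and 3.98. As deposited, Hmgcs1 and Lss had the same order of stages as Srebf2 and Insig1, though the interval of the d24 to d16 ratio of Srebf2 (0.921) held 1, and Fdft1, Sqle and Cyp51 had other orders. Against Gapdh the d16 to d12 ratio was 1.24 for Hmgcs1 and 1.35 for Lss but 0.789 for Srebf2 and 0.853 for Insig1. The exception in the list as deposited was Insig2, at 11.7 FPKM at d12 and 21.9 in the adult. At the same FPKM sum all 8 genes were lower in the adult, where the median log2 change of all genes was -0.995.

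Scarb1 was more abundant than the lipoprotein receptors Lrp8 and Vldlr in each library. Lrp8 was at 10.6 FPKM at d12 and 11.9 in the adult, and Vldlr stayed under 1 FPKM in all 4 libraries. Cholesteryl esters taken up by Scarb1 are split by hormone-sensitive lipase, and its gene Lipe was at 1.32 FPKM at d12 and 1.26 at d16, then 6.97 at d24 and 35.8 in the adult. Lipe was the only gene of 8 tested for storage and intracellular transport that was at least 2-fold higher in the adult than at d12 under each scaling but division by Gapdh, where 4 of the 8 passed. Of all genes, 35.9% were higher by that much as deposited and 71.4% against Gapdh. Of the same 8 genes, 3 were at least 2-fold lower as deposited (23.6% of all genes), 7 at the same FPKM sum (50.2%) and upper quartile (40.7%), and 0 against Gapdh (2.09%).

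Cell type markers moved over the same libraries. As deposited, all 8 listed Sertoli markers were lower in the adult than at d12 (4 of the 8 against Gapdh), 7 of them by at least 2-fold (23.6% of all genes), with summed levels of 204.8 FPKM at d12 and 149.9 at d16, then 93.7 at d24 and 69.9 in the adult. Cldn11 was the most abundant of them in each library, and Amh was at 0 in the adult. Against Gapdh 1 of the 8 was at least 2-fold lower (2.09% of all genes) and 1 higher (71.4%). The 6 spermatogonia markers summed to 213.0, 125.1, 69.9 and 50.5 FPKM, led by Uchl1 in each library and with none at 0, and 5 of the 6 were at least 2-fold lower in the adult than at d12 as deposited (23.6% of all genes) and 1, Gfra1, was higher (35.9%). The number higher was 0 at the same FPKM sum and upper quartile, and against Gapdh 2 were lower (2.09%) and 1 higher (71.4%). As deposited, Hmgcs1 and Lss followed the same order of stages as both the Sertoli sum and the spermatogonia sum. So did single markers of other listed cell types, namely Acta2, Myh11, Cnn1 and Tagln (peritubular myoid), Stra8 and Dmc1 (early meiotic) and Cdh5 (endothelial). The other markers of those lists, and the sums of the lists, had other orders. The order was thus not particular to Sertoli cell and spermatogonia markers. In whole tissue, fewer cells of a type and less RNA per cell cannot be told apart, and the part of cell composition in the levels of the 7 genes was not tested.

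Markers of the later germ cells also differed between the stages. The 6 pachytene spermatocyte markers summed to 61.9 FPKM at d12 and 995.2 at d16, then 4432 at d24 and 5311 in the adult, with Hspa2 the most abundant at d12 and Ldhc thereafter, and as deposited all 6 were at least 2-fold higher at d16 than at d12 (13.4% of all genes) and again at d24 than at d16 (27.7%). From d16 to d24 the count was 4 at the same FPKM sum (19.5%) and 5 at the same upper quartile (21.3%). The 6 round spermatid markers summed to 11.3, 35.9, 942.9 and 5225 FPKM, led by Crem at d12 and d16 and by Tnp1 at d24 and in the adult, with Acrv1 at 0 at d16. The 6 elongating spermatid markers summed to 10.6, 3.88, 1963 and 22505 FPKM, led by Prm2 in each library, with Gapdhs at 0 at d16. Of these 6, 5 were at least 2-fold lower at d16 than at d12 as deposited (4.18% of all genes). The number was 6 at the same FPKM sum (6.27%) and upper quartile (6.96%) and 3 against Gapdh (1.05%). These levels rest on few fragments, such as 17 at d12 and 6 at d16 for Prm1, and their source was not tested. The pachytene and both spermatid sums were thus higher at d24 than at d16, as were Fdft1, Sqle and Cyp51. The part of any germ cell type in these levels was not tested.

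Leydig cell and steroidogenesis genes, the cholesterol users of the testis, summed to 148.5 FPKM at d12 and 113.1 at d16, then 193.6 at d24 and 637.6 in the adult. Between d24 and the adult 5 of these 8 genes were at least 2-fold higher (11.6% of all genes), and 4 at the same FPKM sum (6.82%), at the same upper quartile (9.81%) and against Gapdh (10.8%), and none of the 8 was at 0 in any library. Insl3 was the most abundant in the adult, at 272.8 FPKM, and at d24, Hsd3b1 at d12 and Hsd3b6 at d16. Star was the only 1 of the 8 that was lower in the adult (15.1 FPKM) than at d12 (18.8) as deposited. As deposited, Scarb1 had its lowest level at d16 and its highest in the adult, as had this sum, but over a narrower range. Its d24 level was below that of d12, unlike the sum. Fdft1, Sqle and Cyp51 had the full order of the sum, though d12 and d16 lay within counting error for Fdft1 and Sqle. The part of Leydig cells in the levels of Scarb1, Fdft1, Sqle and Cyp51 was not tested.

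The genes with the profiles nearest to each of the 7 were found by the distance between log2 profiles over the 4 libraries, each centred on its mean, which with 4 points is a description of shape only. For Fdft1 these were 4930404I05Rik, Poc1b and Mllt11, at distances of 0.19, 0.20 and 0.23. Mllt11, for example, was at 4.07, 4.74, 31.5 and 44.3 FPKM from d12 to the adult. The nearest genes were Ppp1r14b, Tmem237 and Btg1 for Sqle, Sorbs3, Rbl2 and Pphln1 for Cyp51, Myl12b, Ctdspl and Psmd5 for Hmgcs1, Cbx3, Akap11 and Slc39a7 for Lss, Foxo3, Spire1 and Tmc6 for Dhcr7, and Wwp1, Rnf5 and Psmd10 for Scarb1. Among the 7 genes themselves, Hmgcs1 and Lss were closest, at a distance of 0.09, with Lss the gene of rank 37 from Hmgcs1. Fdft1 and Hmgcs1 lay 3.76 apart.

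In the mouse assembly GRCm38.p6 with RefSeq genes, the 7 genes lie on 6 chromosomes. Hmgcs1 spans chr13:119690351-119708260 on the plus strand, Fdft1 chr14:63145150-63181687 on the minus strand, Sqle chr15:59315092-59331193 on the plus strand and Lss chr10:76531565-76557139 on the plus strand. Cyp51 (chr5:4080674-4104697) and Scarb1 (chr5:125277087-125341094) share chromosome 5, both on the minus strand, and Dhcr7 spans chr7:143823167-143848410 on the plus strand. The Fdft1 gene overlaps a microRNA gene on its own strand and the end of Ctsb, a lysosomal protease gene on the other strand. The level of Ctsb was 24.2 FPKM at d12 and 16.7 at d16, then 10.6 at d24 and 12.6 in the adult, in an order unlike that of Fdft1. Lss and Scarb1 each overlap a long non-coding RNA gene on the other strand. The libraries and their mapping were strand-specific. Of the 50-base stretches in the GENCODE transcripts of Fdft1, 9.38% also occur in transcripts of Gm6781, which RefSeq lists as a pseudogene, so that fragments from there could be assigned to either. The shared part was 1.36% for Dhcr7, 0.474% for Hmgcs1 and at most 0.135% for the other 4 genes.

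Promoter sequences from RefSeq with GRCm38.p6 were matched for 4 of the 7 genes, with 1 promoter each for Hmgcs1, Lss and Cyp51 and 3 for Dhcr7. Fdft1, Sqle and Scarb1 were not matched. In the 250 bases before the start, 4 short motifs were searched on both strands. The SREBP motif TCACNCCAC was found in 1 of these 6 promoters, that of Hmgcs1, and in 1.05% of all 32851 promoters. The letters CCAAT, an NF-Y box, occurred in 4 of the 6 (33.8% of all), GGGCGG, an Sp1 box, in 5 (32.7%), and TGACG, the core of a cAMP response element, in 2 (17.8%), Hmgcs1 and Cyp51. A match is a description of the letters and not of a bound site. The 250 bases before the start are shown for Hmgcs1 (chr13:119690101-119690350, plus strand) and Cyp51 (chr5:4104698-4104947, minus strand). Hmgcs1 was highest at d12 as deposited but not against Gapdh, and Cyp51 was highest in the adult. Each sequence is given 5′ to 3′ along its gene, with matches to TCACNCCAC, CCAAT and TGACG on either strand in capitals.
Hmgcs1: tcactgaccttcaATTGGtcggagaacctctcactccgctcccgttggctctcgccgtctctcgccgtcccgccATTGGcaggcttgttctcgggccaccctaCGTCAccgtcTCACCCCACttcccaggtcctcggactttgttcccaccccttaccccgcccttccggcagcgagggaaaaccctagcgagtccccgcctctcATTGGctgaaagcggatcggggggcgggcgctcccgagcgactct
Cyp51: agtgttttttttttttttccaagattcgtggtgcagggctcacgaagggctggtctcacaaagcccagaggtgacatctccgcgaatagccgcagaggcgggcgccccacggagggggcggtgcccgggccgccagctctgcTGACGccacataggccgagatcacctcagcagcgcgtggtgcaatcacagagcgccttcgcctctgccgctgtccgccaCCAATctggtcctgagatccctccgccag
In Hmgcs1 the match to the SREBP motif begins 137 bases before the start, and 3 CCAAT matches, all on the reverse strand, lie at 45, 176 and 237 bases. In Cyp51 the TGACG match begins 108 bases and the CCAAT match 29 bases before the start.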

How the data were processed

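Total RNA of testis at d12, d16, d24 and adult stage was sequenced by the authors as read pairs, with 1 library per stage. Stages were taken from the sample labels. The authors deposited FPKM values per gene. Read pairs had been aligned by TopHat2 2.1.0, through Bowtie 1.1.2, against GRCm38/mm10 and RefSeq genes, with strand and a single alignment per pair, and Cuffdiff (Cufflinks 2.2.1) computed the values, correcting for bias and multi-reads but not for effective length, so a gene with near copies can gain or lose fragments. The authors define FPKM relative to the mapped fragments, and no other scaling between libraries is stated in the sources used here. The H3K27Ac samples of the series are not analysed here.

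Here, fragments were recovered from the FPKM of 14603 genes with 1 RefSeq transcript length. Of the low values, between 91.7% and 92.3% per library lay within 0.05 of a whole fragment. For genes with several transcripts the shortest was used, which gives the widest interval. Counts of genes past 2-fold use FPKM ratios, and medians use log2(FPKM + 0.1). Both cover genes whose mean level reached 1 FPKM. Named genes are the 7 genes, lists of pathway genes and cell type markers, the 3 nearest profiles to each and Gapdh; Ctsb and Gm6781 were named after their overlap with Fdft1 was seen. Some listed pathway genes are counted but not reported singly here. The members and lists were chosen with earlier results of these data known. Alternatives were 4 other scalings, folds of 1.5 and 3, a pseudocount of 1 FPKM, and no filter or a mean of at least 5 FPKM. The recovery of fragments and the ratios were tested on simulated data. Python 3.11.15, numpy 2.4.6, pandas 2.3.3, scipy 1.17.1 and matplotlib 3.10.9 were used.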

Additional observations from a re-analysis of the deposited data

How the results depend on the processing

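Of 204 values recomputed under the alternatives, 110 stayed close (ratios within their counting interval, counts and percentages within 1.5 times, medians within 0.1 log2), 87 moved further and 7, all medians, changed sign. Of the 112 rescaled ratios of single genes, 21 lay on the other side of 1 (4 at the same FPKM sum, 4 at the same upper quartile and 13 against Gapdh), none of them past 2-fold as deposited. Each change of sign came with the scaling between libraries. Of the 7 genes, the number at least 2-fold higher at d24 than at d16 (2) was 1 at the same FPKM sum, 4 against Gapdh and 1 at a fold of 3, and the number lower (0) was 3 at the same FPKM sum and 1 at the same upper quartile. From d24 to the adult, the number higher (1) was 0 at the same FPKM sum (6.82% of all genes) and the same upper quartile (9.81%). It was 0 at a fold of 3 and 2 at a fold of 1.5. From d12 to the adult, the number higher (3) was 1 at the same FPKM sum (23.3%) and upper quartile (26.98%). The number lower (0) was 3 under both (50.2% and 40.7%) and at a fold of 1.5. Shares of all genes at folds of 1.5 and 3 are not given here, so counts at those folds do not set the 7 genes apart. The median log2 change of the 7 genes from d12 to d16 (-0.38) was -0.50 at the same FPKM sum, -0.54 at the same upper quartile and 0.31 against Gapdh. From d16 to d24 (0.12) it was -0.50, -0.33 and 1.27. From d24 to the adult (0.14) it was -0.30 at the same FPKM sum and -0.0032 at the same upper quartile. From d12 to the adult (0.35) it was -0.87, -0.42 and 2.12. The cause of these shifts was not tested. No paired analysis was possible because each stage has 1 library. Depth limits Dhcr7 most, with 29 to 82 fragments per library.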
